A study of Homo sapiens with 6 samples.

Results

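The formins are a family of proteins that start and lengthen unbranched actin filaments, and 10 formin genes were followed in the metastatic human breast cancer line MDA-MB-231 after siRNA against TAZ. The genes were taken by symbol from the deposited table of 46427 genes: DIAPH1, DIAPH2 and DIAPH3 (diaphanous formins), DAAM1 and DAAM2 (Dishevelled-associated formins), FMNL1, FMNL2 and FMNL3 (formin-like), FHOD1 and INF2. Messenger RNA was sequenced from 6 cell preparations of wild-type genotype, of which 3 were transfected with control-siRNA and 3 with siGENOME siRNA against WWTR1, the gene that encodes the transcriptional co-activator TAZ, with DharmaFECT4. All cells were of this 1 line, grown in low glucose DMEM with serum. The question was how TAZ knockdown alters genes of cell motility.

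Formins carry a formin homology 2 domain that sits as a dimer on the barbed, fast-growing end of a filament, and a formin homology 1 domain that recruits actin bound to profilin. Most of the diaphanous, DAAM and formin-like proteins are folded in an inactive state that is opened by an upstream activator, such as RhoA for DIAPH1 or Cdc42 for FMNL2. They are known for building stress fibers, filopodia and the cytokinetic ring, and the filaments they make deplete free actin monomers, which releases the MRTF co-activators of the transcription factor SRF.

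The 6 libraries held 49662504 to 66769103 counts (control-siRNA) and 48307548 to 71749634 counts (TAZ-siRNA), and a floor of 3 counts equalled 0.0411 to 0.0618 CPM (counts relative to the normalized size of the library). That floor covers counting error only, and each of the 10 formin genes lay far above it in each library, with 292 counts for DAAM2 in control-siRNA replicate 3 as the lowest. WWTR1, the targeted gene, measured 192, 190 and 190 CPM with control-siRNA and 17.3, 17.03 and 15.1 CPM with TAZ-siRNA. Vimentin (VIM, 3574 ± 139 CPM with control-siRNA, SD, n = 3) and keratins 8 and 18 (KRT8 and KRT18, 500.1 ± 20.1 and 557 ± 30.02 CPM) were abundant. The epithelial cadherin CDH1 (at most 0.578 CPM in a library), the estrogen receptor ESR1 (at most 0.0895) and the progesterone receptor PGR (at most 0.0300) were at or near 0. Keratin RNA was thus abundant and CDH1 RNA near 0. EPCAM, CD44 and ERBB2, also listed, were not weighed, so no verdict on the epithelial label is drawn. The paper measured E-cadherin protein by immunoblot in this line and reported it higher after TAZ-siRNA. The leukocyte markers PTPRC and CD3E were at 0 counts in each library. Of the 17 markers of the line and of other cell types, 10 passed the expression filter and 2 were called, KRT19 (63.4 ± 1.21 to 81.7 ± 4.66 CPM) and GFAP (4.36 ± 0.343 to 5.54 ± 0.313 CPM), both higher with TAZ-siRNA. The GFAP call was lost with any 1 library left out, with DESeq2 and with limma.

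With TAZ-siRNA, DAAM2, DAAM1, FHOD1 and FMNL2 mRNA rose and DIAPH3 mRNA fell. DAAM2 rose by 58.7%, DAAM1 by 29.7%, FHOD1 by 17.3% and FMNL2 by 12.8%, and DIAPH3 decreased by 24.4%. The other formin genes, DIAPH1, DIAPH2, FMNL1, FMNL3 and INF2, did not pass the test. A gene is called here when edgeR's quasi-likelihood test gave it an adjusted p under 0.05 (Benjamini-Hochberg, over 16966 genes left by the expression filter), and all 10 formin genes were among those tested. Thus 5 of 10 formin genes (50%) were called, 4 higher and 1 lower, where 22.1% of all genes tested were called, 11.9% higher and 10.2% lower. The median log2 fold change of the 10 genes was 0.13, against -0.0054 over all genes tested, and their median absolute log2 fold change was 0.16, against 0.17. Without TAZ-siRNA replicate 3 the count was 7 of 10 (33.7% of all genes), and without control-siRNA replicate 1, control-siRNA replicate 2, TAZ-siRNA replicate 1 or TAZ-siRNA replicate 2 it was 3 (13.1, 11.2, 11.9 and 15.3% of all genes). When each library was corrected for the GC content and length of genes, 3 formin genes were higher and 2 lower (26.4% of all genes called). In bulk RNA, fewer cells that express a gene and less of its RNA in each cell cannot be told apart.

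**Figure D1:**
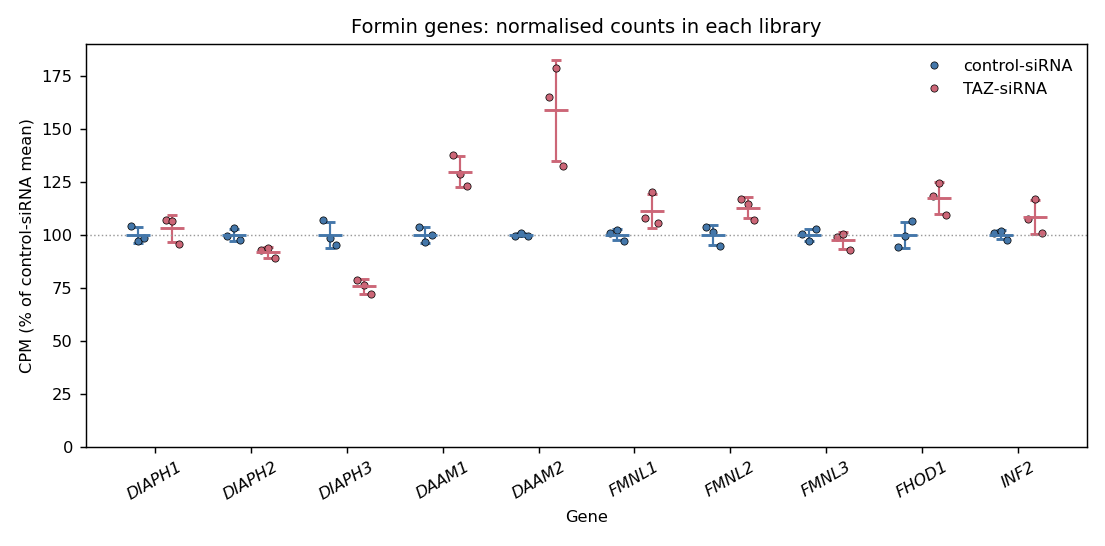
CPM of each formin gene in each of the 6 libraries as a percent of that gene's control-siRNA mean (points), with the mean and SD of each group (n = 3 each). The 3 TAZ-siRNA points lie above all control-siRNA points for DAAM2, DAAM1, FHOD1, FMNL2 and FMNL1, and below them for DIAPH3 and DIAPH2. Over all genes tested, 39.6% had groups that did not overlap.

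The promoters of the 3 formin genes with the largest changes are shown because their RNA moved in opposite directions. They are the 250 bases before the RefSeq start site (GRCh38.p14), written along the gene's own strand, and the start site of each was that of its leading transcript in the deposited table. Capitals mark a CCAAT box, the letters CCAAT or their reverse complement.
DIAPH3, chr13:60163929-60164178, minus strand: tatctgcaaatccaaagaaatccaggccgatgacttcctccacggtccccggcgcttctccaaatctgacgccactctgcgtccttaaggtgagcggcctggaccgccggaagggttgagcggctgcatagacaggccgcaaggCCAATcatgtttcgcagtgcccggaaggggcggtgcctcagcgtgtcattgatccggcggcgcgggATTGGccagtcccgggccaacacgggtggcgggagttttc
DAAM1, chr14:59188417-59188666, plus strand: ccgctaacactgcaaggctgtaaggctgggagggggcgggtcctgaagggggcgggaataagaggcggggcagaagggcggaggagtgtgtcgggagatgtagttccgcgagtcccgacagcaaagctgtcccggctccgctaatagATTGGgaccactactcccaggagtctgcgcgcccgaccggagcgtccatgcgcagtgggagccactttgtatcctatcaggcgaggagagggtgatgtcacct
DAAM2, chr6:39792126-39792375, plus strand: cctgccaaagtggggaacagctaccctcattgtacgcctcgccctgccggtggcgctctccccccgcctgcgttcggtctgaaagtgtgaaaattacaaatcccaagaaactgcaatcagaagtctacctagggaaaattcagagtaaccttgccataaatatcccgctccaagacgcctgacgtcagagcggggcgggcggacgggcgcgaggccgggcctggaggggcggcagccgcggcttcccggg
DIAPH3 held 2 CCAAT boxes, which began 106 and 40 bases before the start site, DAAM1 held 1 at 103 bases and DAAM2 held none. In windows of 300 bases (250 before and 50 after the start), 4 of the 10 formin promoters held a CCAAT box on either strand, DIAPH1 and FHOD1 being the others, against 34.6% of 35116 windows in the table. GGGCGG, the core of an SP1 site, occurred in 10 of 10 formin windows and in 45.0% of all windows. The 10 windows held 60.7 to 78.7% GC, and they were not compared with windows of like GC content. GGAATG, the letters bound by the TEAD partners of TAZ, occurred in none of the 10 windows and in 14.0% of all, TGANTCA, an AP-1 site, in none and in 7.71%, and the CArG box bound by SRF in none and in 1.29%. Where the table gave several start sites for a gene, the window nearest the start of the leading transcript was used. Among the windows not used, GGAATG was present in 1 of DIAPH3 and 1 of INF2, and TGANTCA in 1 of INF2. GGGCGG was present in 1 of DAAM2 and 1 of INF2 and absent from those of DIAPH3 and DAAM1. The FMNL1 window lay 1614 bases from the start of that gene's leading transcript. Each match is a match of letters only.

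DIAPH3, also known as mDia2, builds filopodia and the actin of the cytokinetic ring. It is NCBI gene 81624 and is found on chromosome 13 (GRCh38) at 59665583 to 60163985. DIAPH3 measured 115, 106 and 103 CPM in the control-siRNA libraries and 84.8, 82.6 and 77.8 CPM in the TAZ-siRNA libraries. Each TAZ-siRNA library was below each control-siRNA library. The groups averaged 108 ± 6.58 and 81.7 ± 3.62 CPM (SD, n = 3), and the log2 fold change was -0.40 (SE 0.057, 95% interval -0.53 to -0.28, edgeR quasi-likelihood adjusted p = 0.0010). The call held without each library in turn and in the 9 other settings tried, between -0.45 and -0.35. By p-value DIAPH3 ranked 435 of 16966 genes.

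DIAPH1, or mDia1, is the RhoA effector that assembles the actin of stress fibers. It lies on chromosome 5 from 141515016 to 141619055. DIAPH1 measured 277, 258 and 262 CPM with control-siRNA and 284, 283 and 254 CPM with TAZ-siRNA. The highest and the lowest of the 6 values were both TAZ-siRNA libraries, so the groups overlapped, and the log2 difference of 0.04 had a 95% interval from -0.09 to 0.18 (edgeR quasi-likelihood adjusted p = 0.647). Its sign turned with GC content and length corrected, to -0.07 (adjusted p = 0.240). DIAPH2, the third diaphanous gene (chromosome X, 96684663 to 97604997), measured 41.6, 43.3 and 40.9 CPM with control-siRNA and 38.9, 39.3 and 37.3 CPM with TAZ-siRNA. All TAZ-siRNA values were below all control-siRNA values, and their mean was 91.8% of the control mean, but the test was not passed (log2 fold change -0.12, 95% interval -0.24 to -0.01, adjusted p = 0.124). With GC content and length corrected the difference was -0.21 and was called (adjusted p = 0.0091).

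DAAM1 and DAAM2 bind Dishevelled and act in the planar cell polarity branch of Wnt signaling, where DAAM1 links Dishevelled to RhoA. DAAM2 (NCBI gene 23500, chromosome 6, 39792366 to 39904877) measured 6.01, 6.09 and 6.01 CPM with control-siRNA and 9.96, 10.8 and 8.003 CPM with TAZ-siRNA. The control-siRNA libraries were nearly equal, and the TAZ-siRNA libraries spread more widely with replicate 3 as the lowest, still above all controls. DAAM2 had the largest fold change of the 10 formin genes, a log2 value of 0.67 (SE 0.11, 95% interval 0.42 to 0.91, edgeR quasi-likelihood adjusted p = 0.0026), with group means of 6.04 ± 0.0444 and 9.58 ± 1.43 CPM (SD, n = 3). It was called without each library in turn (0.58 to 0.78) and in the 9 other settings, where the smallest value was 0.35, from limma on log2(FPKM + 1), a scale that understates the change of low genes. MOCS1, whose locus overlaps that of DAAM2 and whose mean count was 372% of that of DAAM2, had a log2 difference of -0.12 (adjusted p = 0.209).

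DAAM1 (NCBI gene 23002, chromosome 14, 59188657 to 59371405) measured 14.8, 13.7 and 14.2 CPM with control-siRNA and 19.5, 18.3 and 17.5 CPM with TAZ-siRNA. The groups did not overlap, and the gap between them was wider than the range within either. From 14.2 ± 0.534 to 18.4 ± 1.03 CPM (SD, n = 3), the log2 fold change was 0.38 (SE 0.071, 95% interval 0.22 to 0.53, edgeR quasi-likelihood adjusted p = 0.0044). DAAM1 was called in all 15 alternatives, at 0.27 to 0.42. Both DAAM genes were thus called, and they were the 2 formin genes that rose most.

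The formin-like proteins shape the cell edge, and FMNL2, which Cdc42 activates, extends lamellipodia. FMNL2 (chromosome 2, 152335170 to 152649826) measured 190, 185 and 173 CPM with control-siRNA and 213, 209 and 196 CPM with TAZ-siRNA. Each TAZ-siRNA library was above each control-siRNA library, with a log2 fold change of 0.17 (SE 0.055, 95% interval 0.05 to 0.30, edgeR quasi-likelihood adjusted p = 0.0471). The call of FMNL2 was at the edge of the threshold: it was lost without each of 5 libraries in turn, TAZ-siRNA replicate 3 being the exception (adjusted p up to 0.194), and with GC content and length corrected (0.10, adjusted p = 0.0814).

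FMNL1, best known from white blood cells, lies on chromosome 17 from 45220268 to 45247322. FMNL1 measured 78.0, 79.0 and 75.3 CPM with control-siRNA and 83.6, 93.1 and 81.8 CPM with TAZ-siRNA. The groups did not overlap, but the log2 difference of 0.15 (95% interval 0.03 to 0.28) did not pass the test (adjusted p = 0.0803). It was called without TAZ-siRNA replicate 3 (0.19, adjusted p = 0.0093), and it was 0.05 with GC content and length corrected (adjusted p = 0.392) and with limma on log2(FPKM + 1) (adjusted p = 0.767). FMNL3 (chromosome 12, 49636499 to 49707405), a close relative of FMNL2 that acts in filopodia, measured 28.7, 27.8 and 29.3 CPM with control-siRNA and 28.3, 28.7 and 26.5 CPM with TAZ-siRNA. These groups overlapped, and the log2 difference was -0.04 (95% interval -0.16 to 0.09, adjusted p = 0.690). With GC content and length corrected it was -0.16 (adjusted p = 0.101).

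FHOD1 binds along stress fibers and matures them. FHOD1 (chromosome 16, 67229389 to 67247481) measured 29.4, 31.1 and 33.2 CPM with control-siRNA and 36.9, 38.8 and 34.2 CPM with TAZ-siRNA. The nearest values of the groups, 33.2 and 34.2 CPM, were both from replicate 3. Its log2 fold change was 0.23 (SE 0.068, 95% interval 0.08 to 0.38, edgeR quasi-likelihood adjusted p = 0.0337). The call was lost without control-siRNA replicate 1, control-siRNA replicate 2, TAZ-siRNA replicate 1 or TAZ-siRNA replicate 2 (adjusted p 0.103 to 0.138), and with limma on FPKM.

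INF2 severs and disassembles filaments as well as building them. INF2 (chromosome 14, 104689606 to 104722535) measured 93.7, 94.3 and 90.6 CPM with control-siRNA and 99.9, 109 and 93.6 CPM with TAZ-siRNA. TAZ-siRNA replicate 3 lay within the control range and the other two lay above it, and the log2 difference of 0.12 (95% interval -0.01 to 0.24) did not pass the test (edgeR quasi-likelihood adjusted p = 0.178). Without TAZ-siRNA replicate 3 it was called (0.17, adjusted p = 0.0114), and with GC content and length corrected its sign turned (-0.02, adjusted p = 0.672).

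Over the family, 7 of 10 formin genes had groups that did not overlap, 5 higher and 2 lower, where 39.6% of all genes tested did not overlap, 20% higher and 19.6% lower. For each of these 7 a 2-sided exact permutation test gave p = 0.1, which is the lowest value that can be reached with 3 libraries in each group. TAZ-siRNA replicate 3 had the lowest CPM of its group for 10 of 10 formin genes, where it was lowest for 41.4% of all genes tested. Once GC content and length were corrected for, it was lowest for 5 of 10, against 35.9% of all genes. The part of GC content in the differences between groups was not tested beyond that correction.

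**Figure D2:**
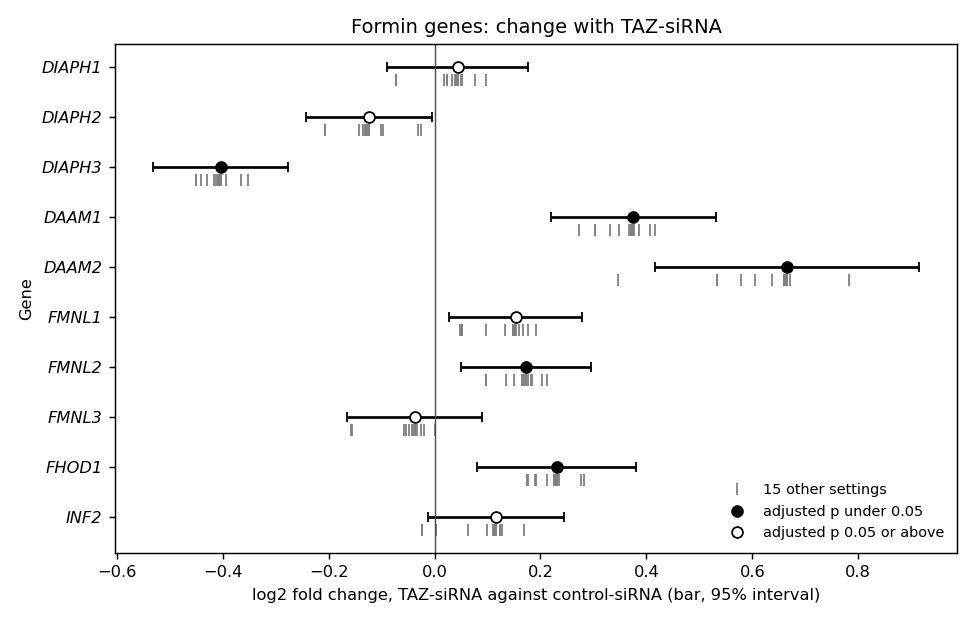
Log2 fold change of each formin gene (circles, bars give the 95% interval, filled where the adjusted p was under 0.05), with the values of 15 other settings as grey ticks below. DIAPH3, DAAM1, DAAM2, DIAPH2, FMNL1, FMNL2 and FHOD1 keep their side of 0 in each setting. Ticks of DIAPH1, FMNL3 and INF2 fall on both sides.

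Levels of different genes were compared per transcript length, in TPM, which is divided by length and brought to 1 fixed sum in every library. The order of the 10 formin genes was the same in both groups, from DIAPH1 through FMNL2, DIAPH3, INF2, FMNL1, FHOD1, DIAPH2, DAAM1 and FMNL3 to DAAM2, and it was also the same in FPKM. In control-siRNA cells DIAPH1 stood at 100.4 ± 5.13 TPM and DAAM2 at 2.09 ± 0.0819 TPM (SD, n = 3). INF2 (36.0 ± 0.984 TPM) and FMNL1 (33.0 ± 5.01 TPM) overlapped between libraries, and all other neighbours in the order were apart. With TAZ-siRNA, DIAPH3 was at 39.1 ± 3.37 TPM, down from 50.5 ± 3.99, and its libraries then overlapped those of INF2 (37.3 ± 3.08 TPM), which in turn overlapped FMNL1 (35.2 ± 3.65 TPM).

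As a share of the summed formin TPM, DIAPH3 went from 15.2% to 11.2%, FMNL2 from 21.1% to 23.4% and DIAPH1 from 30.4% to 30.8%. The smallest shares were those of DAAM1 (1.58% and 2.02%), FMNL3 (1.48% and 1.41%) and DAAM2 (0.631% and 0.981%). The summed level was 349, 332 and 312 TPM with control-siRNA and 367, 369 and 313 TPM with TAZ-siRNA. The groups thus overlapped in the summed level, with the replicate 3 libraries lowest in both.

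**Figure D3:**
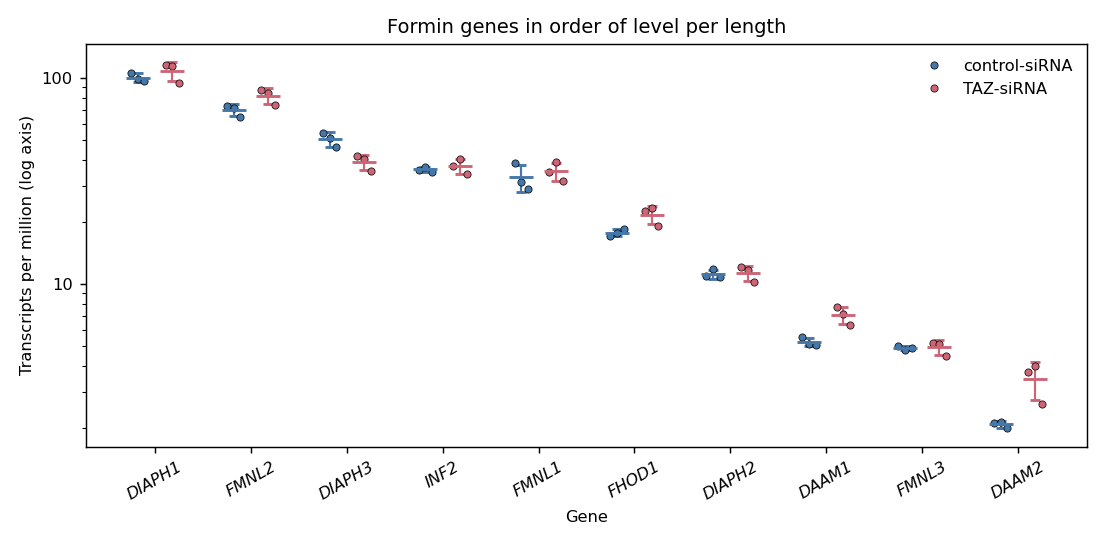
TPM of each formin gene in each library (points, log axis), with the mean and SD of each group (n = 3 each), in order of the control-siRNA mean. The genes span from 2.09 TPM (DAAM2) to 100.4 TPM (DIAPH1) with control-siRNA, and the order is the same with TAZ-siRNA.

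The deposited transcript table listed 85 RefSeq transcripts of the 10 formin genes, of which 49 reached a mean of 0.1 TPM and 46 passed the expression filter. None was called by edgeR's quasi-likelihood test, 7 (of 46, against 6.60% of all transcripts tested) had an unadjusted p under 0.05, and DESeq2 called 4. On counts simulated with changes of at most 2-fold, edgeR found no changed transcript and nearly all transcript calls of DESeq2 were false. Larger changes, as DESeq2 gave for the 4 transcripts it called here, were not simulated. Neither count is read as a result. Among all transcripts tested, edgeR called 0.017%, and the biological coefficient of variation was 84.4% for transcripts against 8.04% for genes, so the precision for a single transcript was much lower than for a gene. DIAPH1 (NM_005219, 91.7% of the gene's TPM with control-siRNA), DAAM1 (NM_001270520, 99.7%) and DAAM2 (NM_001201427, 93.7%) each came mostly from 1 transcript. Those shares were 92.0%, 99.4% and 91.9% with TAZ-siRNA, and the groups overlapped.

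INF2 has 2 full-length forms that differ at the end of the protein, of which NM_022489 encodes the form with a CAAX motif that anchors it to the endoplasmic reticulum, and NM_001031714 the form without it. NM_001031714 held 5.61, 7.43 and 7.82% of the INF2 TPM with control-siRNA and 23.6, 12.2 and 16.2% with TAZ-siRNA. Its share was higher in each TAZ-siRNA library (6.96% ± 1.18 and 17.3% ± 5.75, SD, n = 3, exact permutation p = 0.1, the smallest possible). Shares without overlap were also seen for other formin transcripts, such as NM_013241 of FHOD1. How often they occur over all transcripts was not computed. Its level was 2.50 ± 0.423 and 6.43 ± 2.06 TPM, a log2 difference of 1.31 that edgeR's quasi-likelihood test did not call (adjusted p = 0.342). The short transcript NM_032714, of 1704 bases, had a lower share in each TAZ-siRNA library (34.1% ± 2.36 and 25.7% ± 3.59). NM_022489 held 58.9% ± 3.49 and 56.9% ± 5.81, and its groups overlapped. As shares of the gene's counts, NM_001031714 held 9.43 and 21.5%, NM_032714 10.4 and 7.24%, and NM_022489 80.2 and 71.2%.

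DIAPH2 was split between NM_006729, of 9203 bases, and NM_007309, of 3782 bases. The shorter one held 14.3, 21.3 and 21.9% with control-siRNA and 31.3, 26.2 and 25.7% with TAZ-siRNA. As a share of the gene's counts, without the division by length, it held 8.92 and 13.7% on average. The TPM shares did not overlap, and neither transcript was called (edgeR quasi-likelihood adjusted p = 0.919 for NM_007309 and 0.792 for NM_006729). Per length, DIAPH2 measured 11.2 ± 0.576 and 11.3 ± 0.967 TPM (SD, n = 3), while its CPM was lower in each TAZ-siRNA library.

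For DIAPH3, NM_001042517 held 66.5% ± 7.47 and 76.1% ± 3.47 with overlap, and NM_001258368, at 8.77% ± 4.53 and 1.95% ± 1.87, was lower in each TAZ-siRNA library (adjusted p = 0.930). Some shares turned on 1 or 2 libraries. FHOD1's NM_013241 held 41.1 and 40.6% in control-siRNA replicates 1 and 2 and 96.9 to 99.0% in the other 4 libraries. Its groups did not overlap either (exact permutation p = 0.1). FMNL1's NM_005892 held 70.2% in control-siRNA replicate 1 and at most 2.14% elsewhere.

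**Figure D4:**
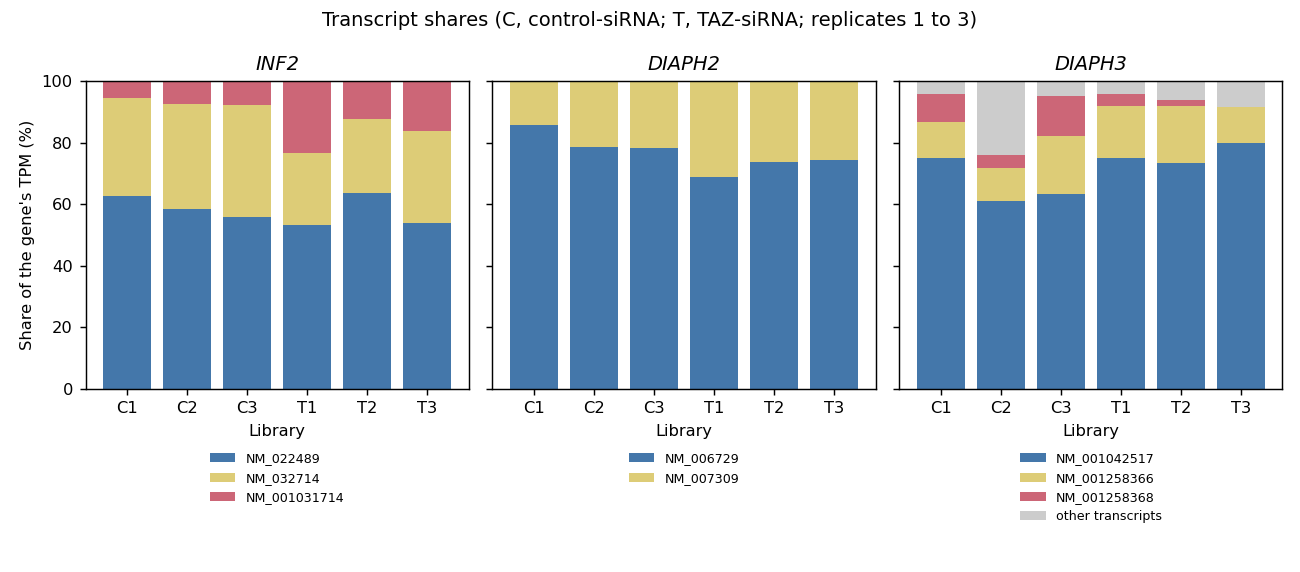
Share of the gene's TPM held by each transcript of INF2 and DIAPH2 and by the 3 leading transcripts of DIAPH3, one bar per library (C, control-siRNA; T, TAZ-siRNA). The INF2 transcript NM_001031714 and the DIAPH2 transcript NM_007309 take a larger share in each of the 3 TAZ-siRNA bars than in any control-siRNA bar. How often this occurs over all transcripts was not computed.

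Of 12 exchange factors and GTPase-activating proteins of the RhoA arm, 6 were called, 3 higher and 3 lower (median log2 fold change -0.0007). The exchange factors NET1 (146 ± 5.36 to 211 ± 16.7 CPM) and ARHGEF3 (20.8 ± 0.429 to 26.9 ± 2.57 CPM), which load RhoA with GTP, rose, and the exchange factor ARHGEF1, named after its values were seen, fell (106 ± 2.85 to 94.98 ± 4.24 CPM). The GTPase-activating protein ARHGAP5 rose (211 ± 11.3 to 265 ± 21.1 CPM), and ARHGAP1 (92.3 ± 2.86 to 77.4 ± 4.75 CPM) and DLC1 (211 ± 14.7 to 178 ± 6.99 CPM) fell.

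Of the 5 actin and profilin genes, which supply the monomers, none was called by edgeR, and 1 had an unadjusted p under 0.05. With GC content and length corrected, edgeR called 2, ACTB higher (0.15, adjusted p = 0.0262) and ACTG1 lower (-0.17, adjusted p = 0.0195), both named after their values were seen, and DESeq2 also called 2. Among 15 partners that bind formins directly, 2 were called, both higher. With GC content and length corrected, 4 were called and 3 of them were lower, IQGAP1 (-0.15), FNBP4 (-0.18) and APC (-0.27), which are named after their values were seen, and with limma none was. DVL3, a Dishevelled protein, had a log2 fold change of 0.17 (edgeR quasi-likelihood adjusted p = 0.0301) that was not called with GC content and length corrected (adjusted p = 0.123), and FNBP1L, a membrane-bending adaptor of Cdc42, had 0.16 (adjusted p = 0.0495). With each library omitted in turn, each of these calls held in 1 case of 6.

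Capping proteins compete with formins for barbed ends, and 3 of 8 were called. CAPZA1, a subunit of capping protein, fell from 419 ± 4.55 to 314 ± 11.8 CPM (log2 fold change -0.42, edgeR quasi-likelihood adjusted p = 5.9e-04) and EPS8 from 77.6 ± 0.411 to 61.0 ± 1.23 CPM (-0.35, adjusted p = 6.7e-04). ADD1, an adducin, rose from 129 ± 5.36 to 155 ± 12.3 CPM (0.27, adjusted p = 0.0132). Both falls were called without each library in turn, and the rise of ADD1 in 3 cases of 6.

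The other human formins in the table were not called by edgeR's quasi-likelihood test, with 1 of them at an unadjusted p under 0.05. FMN1 differed by -0.13 (adjusted p = 0.223), FMN2 by 0.18 (adjusted p = 0.349) and FHOD3 by 0.26 (adjusted p = 0.0842) on the log2 scale. With GC content and length corrected, FMN1 was called at -0.22 (adjusted p = 0.0015). GRID2IP did not pass the expression filter.

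Among 15 SRF and MRTF factors and target genes, 7 were called, 5 higher and 2 lower, and the median log2 fold change was 0.14. With limma 4 were called. ACTA2, smooth muscle actin, rose from 2.82 ± 0.240 to 4.18 ± 0.438 CPM and FILIP1L from 2.08 ± 0.175 to 2.84 ± 0.170 CPM. Vinculin (VCL) rose from 385 ± 15.4 to 463 ± 26.3 CPM and the myosin light chain MYL9 from 67.3 ± 1.74 to 79.9 ± 1.41 CPM, whereas FHL2 fell from 64.2 ± 2.19 to 52.8 ± 5.95 CPM. Of these, MYL9 was called with any of the 6 libraries omitted, ACTA2 in 5 cases of 6 and VCL in 3. FILIP1L and FHL2 (edgeR quasi-likelihood adjusted p = 0.0408 and 0.0229) were called in 1 case each.

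The Arp2/3 complex nucleates branched filaments, and 2 of its 9 subunit genes were called, both lower, a share (22.2%) near the 22.1% of all genes. DESeq2 called 4. ARPC1A measured 120 ± 3.78 and 105 ± 2.97 CPM and ARPC3 228 ± 4.99 and 201 ± 11.3 CPM. ARPC3 was not called with GC content and length corrected (edgeR quasi-likelihood adjusted p = 0.595). With each library omitted in turn, ARPC1A was called in 3 cases of 6 and ARPC3 in 1. Of 12 cytokinesis and mitosis genes, a process in which DIAPH3 acts, 4 were called and all 4 were lower (median log2 fold change -0.10). Anillin (ANLN), a scaffold of the cytokinetic ring, fell from 363 ± 14.8 to 268 ± 22.5 CPM (log2 fold change -0.44, edgeR quasi-likelihood adjusted p = 0.0017) and KIF23 from 113 ± 5.26 to 93.4 ± 6.14 CPM (-0.28, adjusted p = 0.0083). CDK1 (-0.19) and CCNB1 (-0.15) were lower as well, and neither was called with GC content and length corrected (adjusted p = 0.217 and 0.0699). With limma 1 or 2 of the 12 were called. The proliferation marker MKI67 differed by 0.02 (adjusted p = 0.938). The part of proliferation in the fall of DIAPH3 was not tested.

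**Figure D5:**
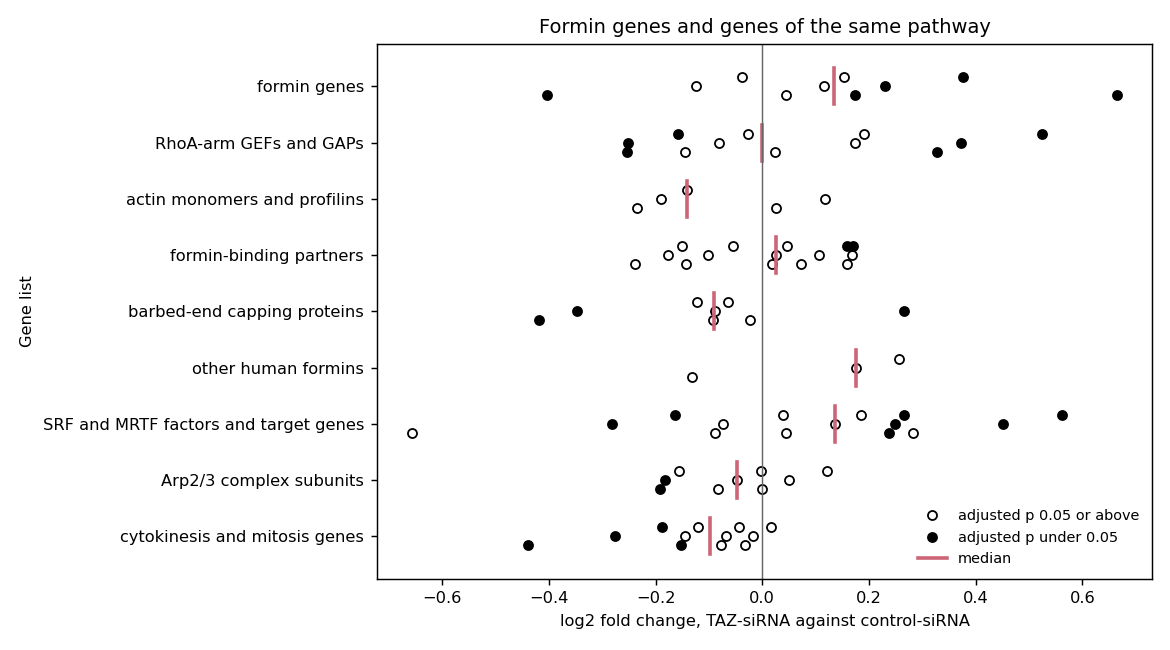
Log2 fold change of each formin gene and of each tested gene in 8 lists of the same pathway (circles, filled where the adjusted p was under 0.05), with the median of each list as a red line. Filled circles lie on both sides of 0 for the formins, the RhoA-arm regulators, the capping proteins and the SRF and MRTF targets, and only below 0 for the cytokinesis and mitosis genes and the Arp2/3 subunits.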

How the data were processed

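RNA from control-siRNA and TAZ-siRNA MDA-MB-231 cells (3 preparations each) was sequenced by the authors from stranded mRNA libraries, mapped to GRCh38 with HISAT2 and quantified with StringTie on RefSeq, per the study's methods; the submitters' processing notes also list Bowtie 0.12.2. The authors deposited an estimated count (a whole number), an FPKM (per length and library) and a TPM (per length, to a common total) for each gene and transcript. Whether counting used the strand is not stated. Genes named as antisense to a formin held at most 6 counts, but other genes that overlap formin loci held more. MOCS1, which overlaps DAAM2, held 1463 to 1995 counts, and PRPF40B, which overlaps FMNL3, 251 to 329. Whether their reads entered the formin counts was not tested. Related formins could share reads where transcripts are alike.

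Counts were compared with edgeR 4.0.16 (R 4.3.3): TMM factors, filterByExpr (minimum count 10), a robust quasi-likelihood fit, Benjamini-Hochberg adjustment. P-values measure the spread between preparations. Alternatives were DESeq2 1.42.0, limma 3.58.1 on log2(FPKM + 1) or log2(FPKM + 0.1), upper-quartile factors, other filters and thresholds, a replicate block, GC content and length offsets (GENCODE; 10 of 10 formin genes and 103 of 103 list genes had values), and leaving out each library. The scripts were tested on simulated data. Named genes were the 10 formins, WWTR1, the called list genes (at most 5 per list, largest change first) and transcripts of at least 0.1 TPM; other genes were chosen after their values were seen. A planned list of pathway genes is not reported here. The formin genes and lists were chosen with earlier results of these data known. Promoters came from RefSeq (GRCh38.p14), matched for 10 of 10.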

Additional observations from a re-analysis of the deposited data

How the results depend on the processing

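DIAPH3, DAAM1 and DAAM2 were called in each of the 15 alternatives. The count of formin genes called, 5, was 3 with limma on FPKM at either pseudocount and at an adjusted p under 0.01, and ran from 3 to 7 with 1 library left out. All genes called numbered 1720 at an adjusted p under 0.01 and 1937 to 5928 with 1 library left out, against 3749. The fixed lists held 27 called genes, 11 at an adjusted p under 0.01 and 11 to 47 with 1 library left out. Formin transcripts called were 4 by DESeq2 and 0 otherwise. The sign turned for DIAPH1 (-0.0723) and INF2 (-0.0238) with GC content and length offsets, and for FMNL3 without TAZ-siRNA replicate 3 (-0.0581 to 0.00052 with 1 library left out). The causes were not tested.

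Whether equal replicate numbers pair the samples is not stated, and 3 libraries in each group cannot settle it. Same-numbered libraries deviated together with correlations across genes of -0.02, 0.01 and 0.07, and not every library correlated best with its own number. With the replicate block, 6 formin genes, 5122 genes and 44 list genes were called, FMNL1 being the added formin gene (0.15, adjusted p = 0.0229). With the block and the offsets, DIAPH1 was at -0.0720 and INF2 at -0.0237, and 3 formin genes were higher and 3 lower, FMNL3 (-0.16, adjusted p = 0.0325) among the latter. Each formin gene had at least 292 counts in each library.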
